A study of Mus musculus with 12 samples.

Results

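Nr4a1, Nr4a2, Nr4a3, Egr1, Egr2 and Egr3 were examined in mouse CD4+ T cells cultured toward the Th17 lineage. These 6 genes were chosen by symbol as the NR4A receptors and the EGR zinc finger factors, out of 23991 gene IDs. The choice was made with earlier results of these data known. Each was listed once in every library, and 6 of 6 passed the expression filter of 1 FPKM in at least 3 libraries, as did 10126 genes in all. FPKM is a read count scaled for transcript length and library size, so levels of different genes are per length.

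The libraries held polyadenylated RNA of CD4+ cells. Male C57BL/6 mice aged 8 to 10 weeks gave spleens or lymph nodes, from which the cells were enriched with magnetic beads by removing other cell types. The 4 groups of 3 libraries were Adcy10-/- cells (written KO) with polarizing cytokines, KO cells in baseline media, wild-type (WT) cells with polarizing cytokines and WT cells in baseline media. All groups were cultured for 18 hours. Adcy10 encodes soluble adenylyl cyclase, a bicarbonate-responsive source of cAMP, and how the mutant allele was made is not given in the sources used here. The labels describe one culture with plate-bound anti-CD3 at 10 µg/mL, anti-CD28 at 2 µg/mL, IL-1β and IL-23 at 20 ng/mL each, IL-6 at 25 ng/mL, and blocking antibodies against IL-4 and interferon-γ at 1 µg/mL each. They do not say which of these additions baseline media lacked. Nor do they say whether replicates were separate animals, so p-values measure only the spread between these samples.

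NR4A1 (Nur77), NR4A2 (Nurr1) and NR4A3 (Nor1) are orphan nuclear receptors whose activity is set mainly by how much of them is made. In T cells their genes are switched on within hours of antigen receptor signaling, through calcium and MAP kinase arms, and the genes are also known cAMP and CREB targets in other tissues. EGR1, EGR2 and EGR3 are zinc finger factors that bind GC-rich sites. They are induced by the same receptor through ERK and NFAT, and EGR2 and EGR3 are known for restraining activated T cells and for roles in anergy.

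The stretches just upstream of the transcription start are shown because the NR4A genes are known CREB targets and the mutant gene makes cAMP. RefSeq windows of 250 bases on GRCm38.p6 were matched for 4 of the 6 genes. Capitals mark each match to the core of the cAMP response element, TGACG on either strand (CGTCA when read on the other). Nr4a1 is chr15:101266596-101266845 on the plus strand, Nr4a2 is chr2:57124004-57124253 on the minus strand, Nr4a3 is chr4:48045055-48045304 on the plus strand, and Egr2 is chr10:67537619-67537868 on the plus strand.
Nr4a1: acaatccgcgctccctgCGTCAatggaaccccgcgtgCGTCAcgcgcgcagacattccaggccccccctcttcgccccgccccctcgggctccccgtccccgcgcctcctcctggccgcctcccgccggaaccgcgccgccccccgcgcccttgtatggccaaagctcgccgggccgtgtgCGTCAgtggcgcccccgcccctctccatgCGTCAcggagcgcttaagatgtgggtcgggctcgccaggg
Nr4a2: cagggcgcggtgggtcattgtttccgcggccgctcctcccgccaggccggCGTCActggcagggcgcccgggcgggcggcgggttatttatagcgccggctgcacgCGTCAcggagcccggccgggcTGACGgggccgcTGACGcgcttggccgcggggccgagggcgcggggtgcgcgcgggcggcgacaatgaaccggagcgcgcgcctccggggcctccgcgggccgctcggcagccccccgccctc
Nr4a3: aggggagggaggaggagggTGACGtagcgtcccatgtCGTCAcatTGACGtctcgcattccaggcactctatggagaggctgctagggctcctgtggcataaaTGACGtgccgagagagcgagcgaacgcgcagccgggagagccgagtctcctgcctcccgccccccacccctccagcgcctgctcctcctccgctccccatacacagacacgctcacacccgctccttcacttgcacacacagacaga
Egr2: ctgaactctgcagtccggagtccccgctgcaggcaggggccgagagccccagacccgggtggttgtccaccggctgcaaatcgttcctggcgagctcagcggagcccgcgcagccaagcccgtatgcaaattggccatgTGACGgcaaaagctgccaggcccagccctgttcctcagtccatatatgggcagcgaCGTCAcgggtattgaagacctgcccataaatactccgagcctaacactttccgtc
The Egr2 window is the one of 5 that lies nearest to the start of a GENCODE principal transcript. It ends at the start of a GENCODE transcript. The Nr4a3 window ends 74 bases from the nearest GENCODE transcript start. Egr1 and Egr3 are not shown here.

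The cAMP response element core occurred 4 times in the Nr4a1 window, 4 times in the Nr4a2 window, 4 times in the Nr4a3 window and 2 times in the Egr2 window, and 17.8% of the 32851 windows of this length held it at least once. In Nr4a1 the matches began at -233, -213, -69 and -40, counted from the start site, and in Egr2 at -111 and -55. The full palindrome TGACGTCA was in none of the 4 windows (1.55% of all windows). A CArG box, the sequence that serum response factor binds, began at -72 in Egr2 (1.47% of all windows), and an EGR site (GCGGGGGCG or GCGTGGGCG, either strand) began at -60 in Nr4a1 (3.06%). The NR4A monomer element AAAGGTCA was in none of the 4 windows (1.34%), the NFAT core GGAAA was in those of Nr4a2 and Egr2 (55.6%), and a MEF2 site began at -167 in Nr4a2 (2.92%). Of these motifs only the palindrome contains another, the core. A match describes the letters of the window and not a bound site.

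The targeted gene Adcy10 was listed at 0 FPKM in 12 of 12 libraries, which leaves the genotype labels unchecked by its level. Libraries summed to between 547870 and 594750 FPKM. Their read depth is unknown in absolute terms, and low values placed it between 0.731 and 1.025 of that of WT baseline replicate 1. The 4 libraries numbered 1 stood apart in 2 marker lists. CD4 T cell markers (9 of 10 listed) summed to between 2235 and 2312 FPKM in them, against between 1849 and 2227 FPKM in the 8 libraries numbered 2 and 3. The other list was that of B cell markers (10 of 10 listed, none at 0 in all 12 libraries), which summed to between 2.69 and 14.0 FPKM in the libraries numbered 1, against between 34.0 and 95.1 FPKM in the others. In bulk RNA, fewer expressing cells and less RNA per cell cannot be told apart.

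The first question was how the 6 genes differed between media with polarizing cytokines and baseline media. Nr4a1, Nr4a2, Nr4a3 and Egr3 were lower with cytokines and Egr1 and Egr2 were not, so that the EGR family split. Averaged over genotypes, 4 of 6 genes passed the limma test (Benjamini-Hochberg adjusted p under 0.05 over the 10126 genes), all 4 lower, where 6.68% of all genes passed as lower. Without a replicate block none of the 6 passed as higher, where 6.57% of all genes did. Egr1 and Egr2 passed as higher in blocked fits, given below. The median log2 change of the 6 genes was -0.44, beside -0.02 over all genes tested. Ranked from the most negative change, Nr4a3 was 31st, Egr3 74th, Nr4a1 198th and Nr4a2 269th of 10126.

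**Figure D1:**
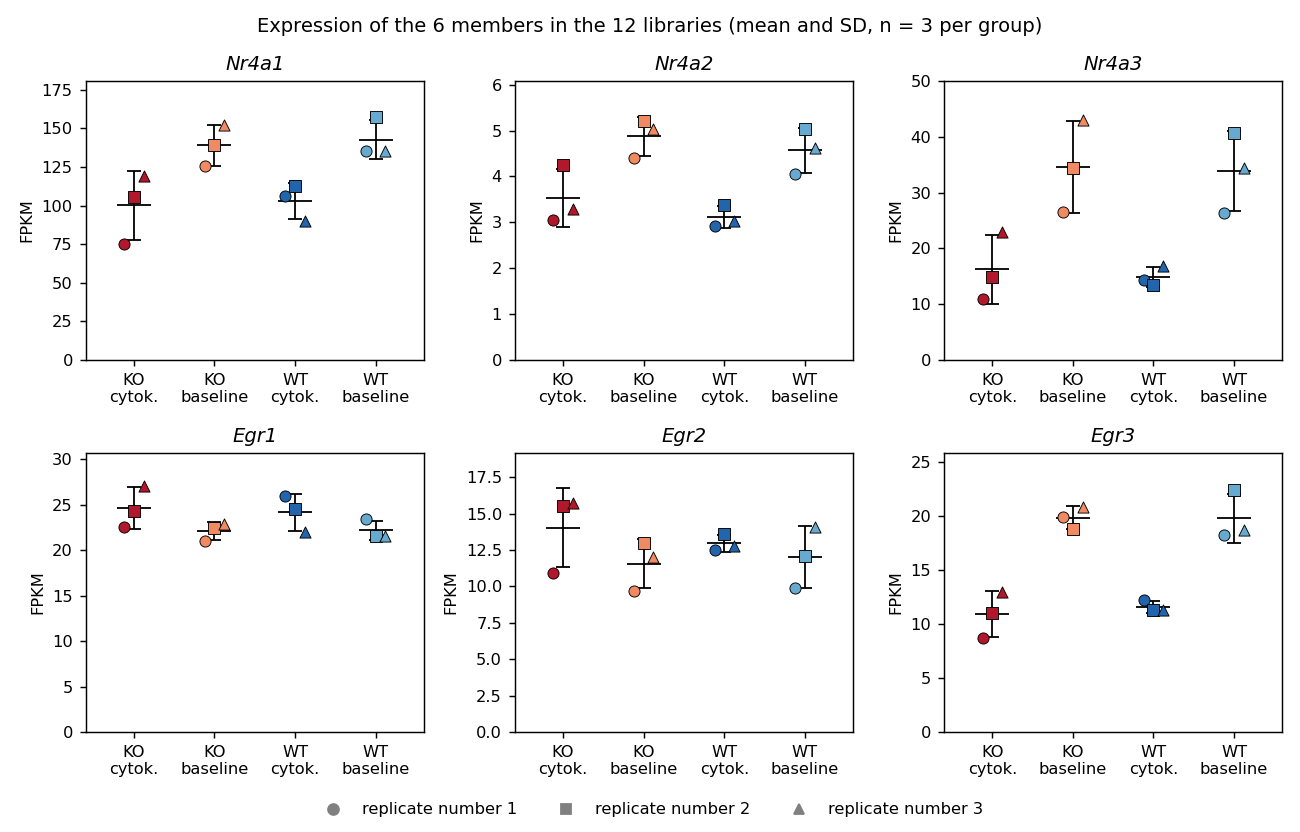
FPKM of the 6 genes in each library (points, with the shape giving the replicate number) with the mean and SD of each group of 3 (black bars), KO cytokines, KO baseline, WT cytokines and WT baseline from left to right. Nr4a1, Nr4a3 and Egr3 lie lower in the 6 cytokine libraries than in the 6 baseline libraries, and Egr1 and Egr2 overlap.

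Nr4a1, the most abundant of the 6, measured 75.4, 105.8 and 119.2 FPKM in KO cytokine libraries 1 to 3, against 125.7, 138.9 and 152.3 FPKM in KO baseline libraries. It measured 106.3, 112.8 and 89.9 FPKM in WT cytokine libraries, against 135.2, 157.1 and 135.5 FPKM in WT baseline libraries. Every cytokine library lay below every baseline library, in both genotypes. The mean over the 6 cytokine libraries was 0.721 of that over the 6 baseline libraries. On the log2(FPKM + 1) scale the change averaged over genotypes was -0.48 ± 0.10 (SE), with an adjusted p of 0.0108. Taken by genotype it was -0.49 ± 0.15 in KO (adjusted p = 0.0982) and -0.47 ± 0.15 in WT (adjusted p = 0.101), neither past the threshold. With the replicate number as a block both passed, with an adjusted p of 0.036 in KO and 0.0359 in WT.

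Nr4a2, the least abundant, measured 3.06, 4.24 and 3.28 FPKM in KO cytokine libraries, against 4.40, 5.21 and 5.03 FPKM in KO baseline libraries. It measured 2.92, 3.38 and 3.03 FPKM in WT cytokine libraries, against 4.06, 5.03 and 4.61 FPKM in WT baseline libraries. The media did not overlap within a genotype, but the highest cytokine library (KO replicate 2) exceeded the lowest baseline library (WT replicate 1). The averaged log2 change was -0.41 ± 0.08 (adjusted p = 0.00406). It was -0.38 ± 0.11 in KO (adjusted p = 0.0702, and 0.00447 with the block) and -0.44 ± 0.11 in WT (adjusted p = 0.0403). The added 1 in log2(FPKM + 1) understates the change of so low a gene, whose mean with cytokines was 0.702 of the baseline mean.

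Nr4a3 had the largest change of the 6. It measured 11.0, 14.8 and 23.0 FPKM in KO cytokine libraries, against 26.5, 34.4 and 43.0 FPKM in KO baseline libraries. WT cytokine libraries held 14.4, 13.4 and 16.8 FPKM, against 26.4, 40.7 and 34.4 FPKM in WT baseline libraries. No cytokine library reached a baseline library. The mean with cytokines was 0.454 of the baseline mean. The log2 change was -1.08 ± 0.24 in KO (adjusted p = 0.0295), -1.12 ± 0.24 in WT (adjusted p = 0.0233) and -1.10 ± 0.17 averaged (adjusted p = 0.0016).

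Egr3 was the EGR gene that passed without a block, in both genotypes. It measured 8.76, 11.0 and 13.0 FPKM in KO cytokine libraries, against 19.9, 18.8 and 20.9 FPKM in KO baseline libraries. It measured 12.2, 11.3 and 11.3 FPKM in WT cytokine libraries, against 18.3, 22.4 and 18.7 FPKM in WT baseline libraries. Its 6 cytokine libraries lay between 8.76 and 13.0 FPKM, all under the lowest baseline library at 18.3 FPKM. The log2 change was -0.82 ± 0.12 in KO (adjusted p = 0.00242), -0.72 ± 0.12 in WT (adjusted p = 0.00541) and -0.77 ± 0.08 averaged (adjusted p = 0.000131). Egr3 had the smallest adjusted p of the 6 genes in all 3 cytokine contrasts.

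Egr1, a classical target of ERK signaling, measured 22.6, 24.3 and 27.1 FPKM in KO cytokine libraries, against 21.0, 22.4 and 22.9 FPKM in KO baseline libraries. It measured 26.0, 24.5 and 22.0 FPKM in WT cytokine libraries, against 23.4, 21.6 and 21.6 FPKM in WT baseline libraries. The media overlapped in both genotypes. The averaged log2 change was 0.13 ± 0.05, with a 95% interval of 0.01 to 0.25 and an adjusted p of 0.153. With a block on the replicate number within each genotype Egr1 passed as higher (adjusted p = 0.0218), where 1229 of 10126 genes did. A block shared by both genotypes gave an adjusted p of 0.109.

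Egr2 measured 10.9, 15.5 and 15.7 FPKM in KO cytokine libraries, against 9.69, 13.0 and 12 FPKM in KO baseline libraries. It measured 12.5, 13.6 and 12.8 FPKM in WT cytokine libraries, against 9.88, 12.1 and 14.1 FPKM in WT baseline libraries. These ranges overlapped too. The averaged log2 change was 0.18 ± 0.11, with a 95% interval of -0.05 to 0.41 and an adjusted p of 0.322. With the block shared by both genotypes it passed, as higher, with an adjusted p of 0.0479, where 11.7% of all genes did. With the block within each genotype it also passed as higher (adjusted p = 0.0436), where 1229 of 10126 genes did.

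**Figure D2:**
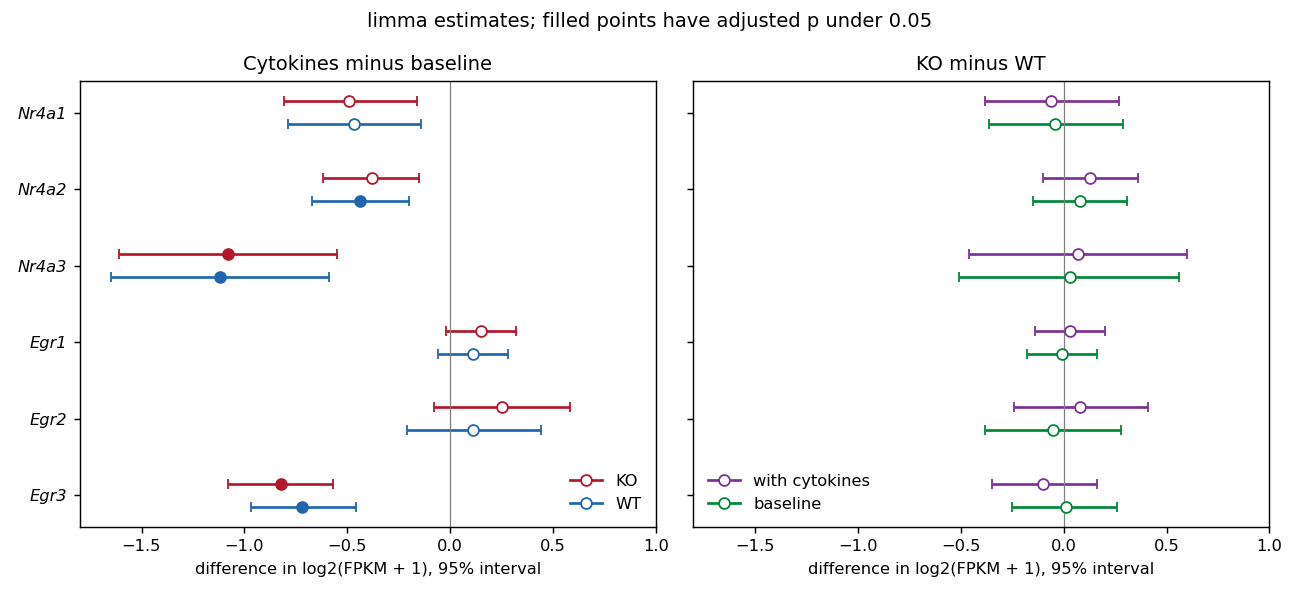
Estimated differences in log2(FPKM + 1) with 95% intervals for cytokines minus baseline (left, KO and WT) and KO minus WT (right, with cytokines and at baseline), filled where the adjusted p is under 0.05. Nr4a3 and Egr3 are filled in both genotypes on the left, Nr4a2 in WT, and no point is filled on the right.

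In KO cells 2 of 6 genes passed as lower, Nr4a3 and Egr3, where 2.12% of all genes did. In WT cells 3 of 6 passed as lower, Nr4a2, Nr4a3 and Egr3, where 2.28% of all genes did. With the replicate block 4 of 6 passed as lower in KO (5.98% of all genes) and 4 of 6 in WT (7.43% of all genes). Nr4a1, Nr4a2, Nr4a3 and Egr3 were lower without overlap between media in each genotype, as were 12.3% of all genes in KO and 10.3% in WT. Over all 12 libraries 3 of 6 genes did not overlap, Nr4a1, Nr4a3 and Egr3, where 4.40% of all genes were lower without overlap. That a gene passed in one genotype and not in the other does not show that its response differed, and the test of that difference is given with the genotype results.

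Within genotypes the Nr4a3 call depended on which libraries were in the fit, while its log2 change stayed between -1.35 and -0.84 in KO and between -1.28 and -0.98 in WT whichever library was left out. With the replicate block and all libraries the adjusted p was 0.00196 in KO and 0.00168 in WT. Without the block, in KO the adjusted p was 0.0706 without KO baseline replicate 2, 0.121 without KO baseline replicate 3, 0.108 without KO cytokine replicate 1 and 0.0908 without KO cytokine replicate 2. In WT it was 0.116 without WT baseline replicate 2, 0.0525 without WT baseline replicate 3, 0.0778 without WT cytokine replicate 1 and 0.0813 without WT cytokine replicate 2. The Nr4a2 call in WT was lost in 8 of 12 such fits, with an adjusted p of 0.0529 to 0.18, namely without any of WT cytokine replicates 1 to 3, WT baseline replicate 2 or 3, KO cytokine replicate 3, or KO baseline replicate 2 or 3. Nr4a2 passed in KO without KO cytokine replicate 2 (0.0271), and Nr4a1 passed in WT without KO cytokine replicate 1 (0.0277). The 4 averaged calls were kept in 12 of 12 fits, and Egr3 was also called in 12 of 12 fits in each genotype.

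Differences within replicate numbers had one sign for most of the 6 genes. The share of all genes with such runs of sign was not counted. Nr4a1, Nr4a2, Nr4a3 and Egr3 were lower with cytokines in 6 of 6 pairs of the same genotype and number, and Egr1 was higher in 6 of 6. Egr2 was higher in 5 of 6, the exception being WT number 3 at -0.12 on the log2 scale. For Nr4a3 the pair differences were -1.20, -1.16 and -0.87 in KO and -0.84, -1.54 and -0.99 in WT. For Egr3 they were -1.09, -0.72 and -0.64 in KO and -0.55, -0.92 and -0.68 in WT.

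**Figure D3:**
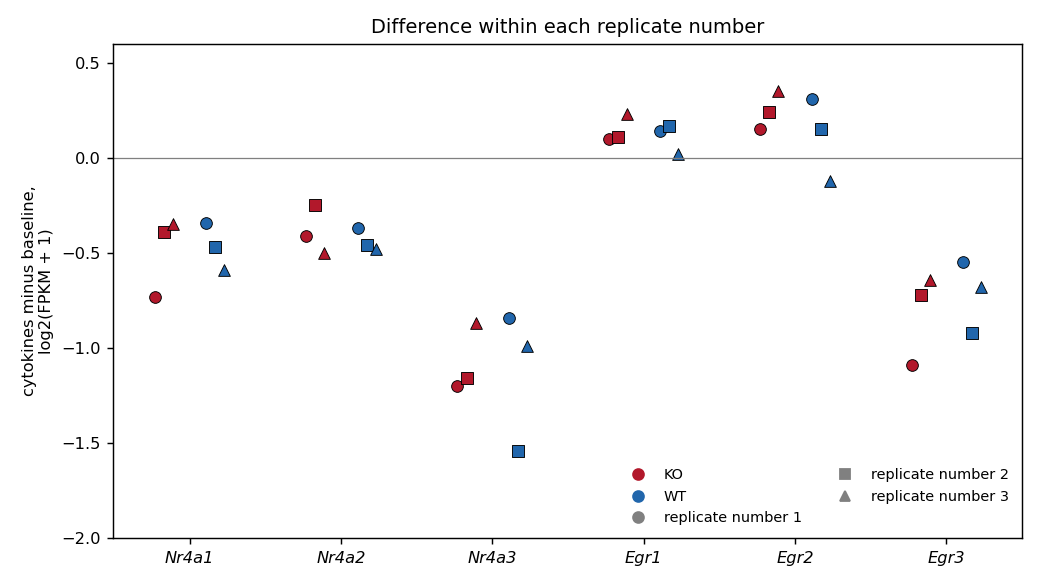
Difference in log2(FPKM + 1), cytokines minus baseline, within each replicate number (shape) and genotype (KO red, WT blue). The 6 pairs of Nr4a1, Nr4a2, Nr4a3 and Egr3 lie under 0, and those of Egr1 lie above 0.

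The libraries numbered 1 were low for several of these genes. Nr4a2 and Egr2 were lowest in number 1 in 4 of 4 groups, and Nr4a1 and Nr4a3 in 3 of 4. Without the 4 libraries numbered 1 the averaged log2 changes were -0.45 ± 0.08 for Nr4a1, -0.42 ± 0.08 for Nr4a2, -1.14 ± 0.14 for Nr4a3 and -0.74 ± 0.08 for Egr3, with adjusted p of 0.0126, 0.0152, 0.00213 and 0.00109. Several marker sums moved with the medium within pairs of the same genotype and number. B cell markers were lower with cytokines in 5 of 6 pairs, the exception being WT number 1 at 3.54 FPKM with cytokines and 2.69 FPKM at baseline. Their ranges, set apart by number, overlapped between media. They spanned 8.15 to 42.2 FPKM in KO cytokine and 14.0 to 58.9 FPKM in KO baseline libraries, and 3.54 to 56.8 FPKM in WT cytokine and 2.69 to 95.1 FPKM in WT baseline libraries. Macrophage or monocyte markers (9 of 10 listed, none at 0 in all 12 libraries) were higher with cytokines in 6 of 6 pairs and summed to between 21.9 and 28.8 FPKM in KO cytokine libraries, against 15.7 to 20.8 FPKM in KO baseline libraries, and to between 29.5 and 104.6 FPKM in WT cytokine libraries, against 20.5 to 66.7 FPKM in WT baseline libraries. NK cell markers summed to between 2.46 and 3.56 FPKM with cytokines and between 19.4 and 30.8 FPKM at baseline, of which Eomes, also made by T cells, reached 30.2 FPKM while the other 5 stayed at or under 0.731 FPKM. CD4 T cell markers were higher with cytokines in 6 of 6 pairs, at 2024 to 2312 FPKM with cytokines and 1849 to 2258 FPKM at baseline. The KO number 1 pair was nearly level, at 2258.8 FPKM with cytokines and 2257.8 FPKM at baseline. Averaged over genotypes, the median log2 change of the 9 tested CD4 T cell markers was 0.02. Of these, 3 passed as higher and 1 as lower, where 6.57% and 6.68% of all genes did. Dendritic cell markers were higher in 6 of 6 (2.92 to 8.80 FPKM with cytokines, 2.12 to 6.54 FPKM at baseline), and neutrophil markers in 5 of 6 (0.958 to 60.2 FPKM with cytokines, 1.21 to 19.4 FPKM at baseline). Single genes weighed heavily in other sums too. In the CD8 T cell list Cd8b1 measured 7.49 to 12.2 FPKM, against 0.067 to 2.52 FPKM for Cd8a. In the macrophage or monocyte list 2 of 9 listed genes passed the expression filter, and Lyz2 measured 11.8 to 93.5 FPKM. In the dendritic cell list 2 of 8 passed it, and Batf3 measured 1.29 to 6.62 FPKM. Mast cell or basophil markers were lower in 5 of 6 (2.23 to 8.48 FPKM with cytokines, 3.12 to 10.1 FPKM at baseline), CD8 T cell markers in 4 of 6 and red cell markers in 3 of 6. The part of these markers in the changes was not tested.

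The make-up of each family shifted with the medium. The 3 NR4A genes summed to 119.9 ± 28.3 FPKM in KO cytokine libraries and 178.5 ± 21.9 FPKM in KO baseline libraries, and to 121.0 ± 10.1 FPKM in WT cytokine libraries and 181.0 ± 19.4 FPKM in WT baseline libraries (SD, n = 3 each). Nr4a3 gave 13.3% ± 2.17 of that sum in KO cytokine and 19.2% ± 2.27 in KO baseline libraries, and 12.4% ± 2.61 in WT cytokine and 18.6% ± 2.29 in WT baseline libraries. The share of Nr4a3 was lower with cytokines in both genotypes, and Nr4a1 held between 76.0% and 87.1% of the sum in every library. The EGR sum differed less between media, at 49.6 ± 6.85 FPKM in KO cytokine and 53.5 ± 2.71 FPKM in KO baseline libraries, and 48.8 ± 2.32 FPKM in WT cytokine and 54.1 ± 2.32 FPKM in WT baseline libraries. Within it, Egr3 gave 21.9% ± 1.32 in KO cytokine and 37.1% ± 2.3 in KO baseline libraries, and 23.8% ± 0.824 in WT cytokine and 36.6% ± 2.9 in WT baseline libraries. The ratio of Egr1 to Egr3 was 1.94 to 2.58 in the 6 cytokine libraries and 0.967 to 1.28 in the 6 baseline libraries.

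**Figure D4:**
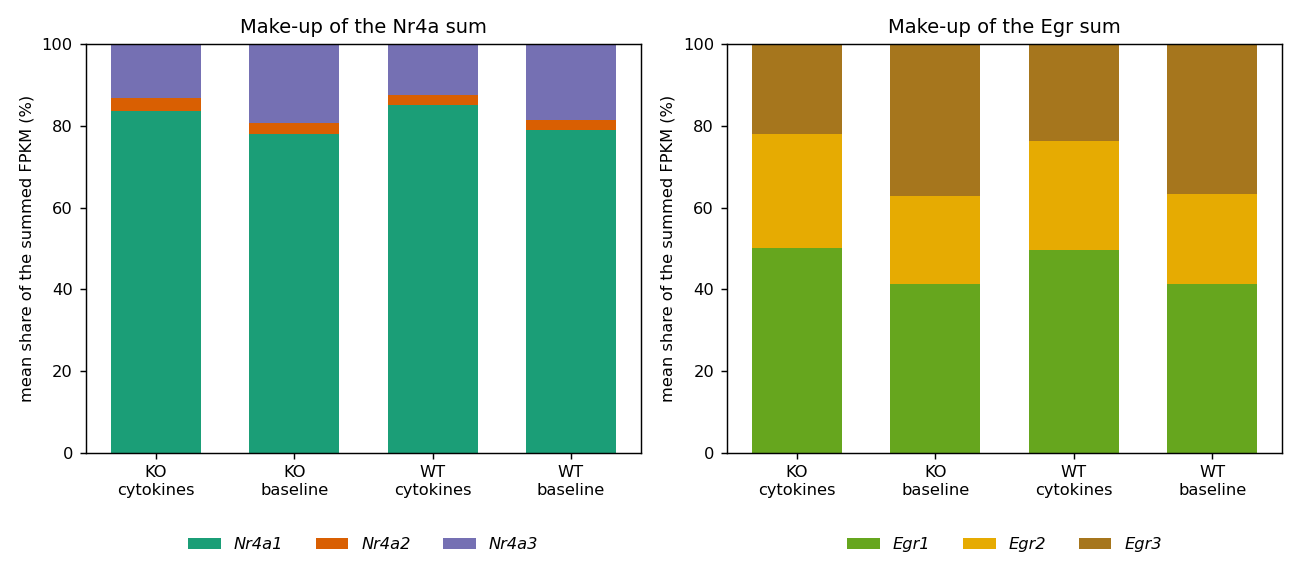
Share of each gene in the summed FPKM of its family (stacked bars, mean of 3 libraries, in percent), for KO cytokines, KO baseline, WT cytokines and WT baseline. Egr3 holds between 34.4% and 39.9% of the EGR sum in the baseline libraries and between 20.8% and 24.5% in the cytokine libraries.

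The order of the levels differed between media. At baseline the order of mean FPKM in both genotypes was Nr4a1, Nr4a3, Egr1, Egr3, Egr2 and Nr4a2, and neighbours in that order did not overlap except Egr1 and Egr3 in WT. With cytokines it was Nr4a1, Egr1, Nr4a3, Egr2, Egr3 and Nr4a2 in both genotypes. In KO cytokine libraries Egr1 and Nr4a3, Nr4a3 and Egr2, and Egr2 and Egr3 overlapped. In WT cytokine libraries Nr4a3 and Egr2 did.

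The second question was whether loss of Adcy10 moved these genes, in either medium. No difference was detected. With limma, 0 of 6 genes passed in KO against WT with cytokines, at baseline or averaged over media, where 0.0% of all genes passed in each, and 0 of 6 had an unadjusted p under 0.05. Over all genes, the unadjusted p was under 0.05 for 202 with cytokines (1.99%), 118 at baseline (1.17%) and 180 averaged (1.78%), and each adjusted p of the 6 genes rounded to 1.00. With the replicate block 0 of 6 passed either, where 0.0% of all genes passed with cytokines, 0.0% at baseline and 0.0296% averaged.

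With cytokines Nr4a1 averaged 100.1 ± 22.4 FPKM in KO and 103.0 ± 11.8 FPKM in WT libraries, and at baseline 138.9 ± 13.3 FPKM in KO and 142.6 ± 12.6 FPKM in WT libraries. Egr3 averaged 10.9 ± 2.13 FPKM in KO and 11.6 ± 0.494 FPKM in WT libraries with cytokines, and 19.8 ± 1.04 FPKM in KO and 19.8 ± 2.26 FPKM in WT libraries at baseline. Nr4a3 averaged 16.3 ± 6.14 FPKM in KO and 14.9 ± 1.8 FPKM in WT libraries with cytokines, and 34.6 ± 8.24 FPKM in KO and 33.8 ± 7.18 FPKM in WT libraries at baseline. In each of these comparisons the gap between genotypes was smaller than the SD of at least 1 of the groups. Averaged over media, the log2 differences KO minus WT had 95% intervals of -0.28 to 0.18 for Nr4a1, -0.06 to 0.27 for Nr4a2, -0.33 to 0.43 for Nr4a3, -0.11 to 0.13 for Egr1, -0.21 to 0.25 for Egr2 and -0.22 to 0.14 for Egr3. The interval was narrowest for Egr1 and widest for Nr4a3.

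Nr4a2 was higher in KO in 6 of 6 pairs of the same medium and number, by 0.05, 0.26 and 0.09 with cytokines and 0.09, 0.04 and 0.10 at baseline on the log2 scale. Its averaged difference of 0.11 ± 0.08 did not pass (adjusted p rounded to 1.00). The share of all genes with 6 of 6 pairs of one sign was not counted. The other 5 genes of the 6 went both ways among the 6 pairs. With cytokines, the SD of each of the 6 genes was larger in KO than in WT libraries. Nr4a1 spanned 75.4 to 119.2 FPKM in KO and 89.9 to 112.8 FPKM in WT, and Nr4a3 spanned 11.0 to 23.0 FPKM in KO and 13.4 to 16.8 FPKM in WT. Some other genes went the other way, such as Il2ra with an SD of 11.5 FPKM in KO and 26.7 FPKM in WT cytokine libraries. How many of all genes spread more in KO was not counted. In KO, replicate 1 was the lowest of the cytokine libraries for each of the 6 genes.

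The difference between media was then compared between genotypes. The interaction, the cytokine change in KO minus that in WT, was -0.02 ± 0.21 for Nr4a1, 0.05 ± 0.15 for Nr4a2, 0.04 ± 0.34 for Nr4a3, 0.04 ± 0.11 for Egr1, 0.13 ± 0.21 for Egr2 and -0.10 ± 0.16 for Egr3 on the log2 scale. None of the 6 passed limma (0.0% of all genes did, also with the block, and 112 or 1.11% of all genes had an unadjusted p under 0.05, none of the 6 among them). The 95% intervals ran from -0.71 to 0.80 for Nr4a3 and from -0.46 to 0.26 for Egr3, so differences of that size between the genotypes' responses were within the error.

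Genes that feed into or respond to these factors were counted in lists written from general knowledge, with earlier results of these data known. Counts are for the averaged cytokine contrast, in which 13.2% of all genes passed, or 25.9% with the replicate block. Of 7 tested EGR paralogs and cofactors none passed (1 had an unadjusted p under 0.05), with a median log2 change of -0.04. The smallest p was that of Nab2, a corepressor that binds EGR proteins and is itself an EGR target, with a change of -0.23 ± 0.08 (adjusted p = 0.0922, and 0.000908 with the replicate block). Egr4, the remaining EGR paralog, lay below the filter, at 0.347 to 0.800 FPKM. In the MAP kinase and SRF list 3 of 22 tested genes were higher and 5 lower (median -0.05). Among those that passed, the 4 largest changes were those of dual-specificity phosphatases, feedback inhibitors of MAP kinases that are themselves induced by ERK, namely Dusp5 at -0.69 ± 0.09, Dusp4 at -0.64 ± 0.15, Dusp2 at -0.40 ± 0.08 and Dusp6 at -0.28 ± 0.08. With the replicate block 3 of the 22 were higher and 8 lower. Dusp5 averaged 33.8 ± 4.04 FPKM in KO cytokine and 60.0 ± 11.2 FPKM in KO baseline libraries, and 37.4 ± 4.96 FPKM in WT cytokine and 56.4 ± 3.98 FPKM in WT baseline libraries.

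In the calcium, calcineurin and NFAT list 2 of 20 were higher and 3 lower (median -0.01). Ppp3ca, a catalytic subunit of calcineurin, fell by 0.47 ± 0.11 and Hdac7, a MEF2-bound repressor of Nr4a1 in thymocytes, fell by 0.42 ± 0.07, while Nfatc2 rose by 0.31 ± 0.06 and Ppp3cc, another calcineurin subunit, by 0.22 ± 0.06. In the cAMP and CREB list 1 of 15 was higher and 4 lower (median -0.06). Sik3 rose by 0.45 ± 0.06 while its relative Sik1, a CREB target that restrains CREB coactivators, fell by 0.38 ± 0.06. Pde7a, a cAMP phosphodiesterase, and Prkacb, a catalytic subunit of protein kinase A, each fell by 0.23 ± 0.06. With the replicate block 4 of the 15 were higher and 4 lower.

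Other immediate early genes went both ways, with 7 of 33 higher and 4 lower (median 0.07). Sgk1, a kinase of Th17 cells, rose by 1.26 ± 0.17 and the AP-1 gene Fosl2 by 0.99 ± 0.12. Fosb and Atf3, stress and activation induced factors, fell by 0.89 ± 0.13 and 0.80 ± 0.10. Fosb averaged 1.11 ± 0.336 FPKM in KO cytokine and 3.12 ± 0.844 FPKM in KO baseline libraries, and 0.841 ± 0.32 FPKM in WT cytokine and 2.26 ± 0.588 FPKM in WT baseline libraries. With the replicate block 12 of the 33 were higher and 6 lower.

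**Figure D5:**
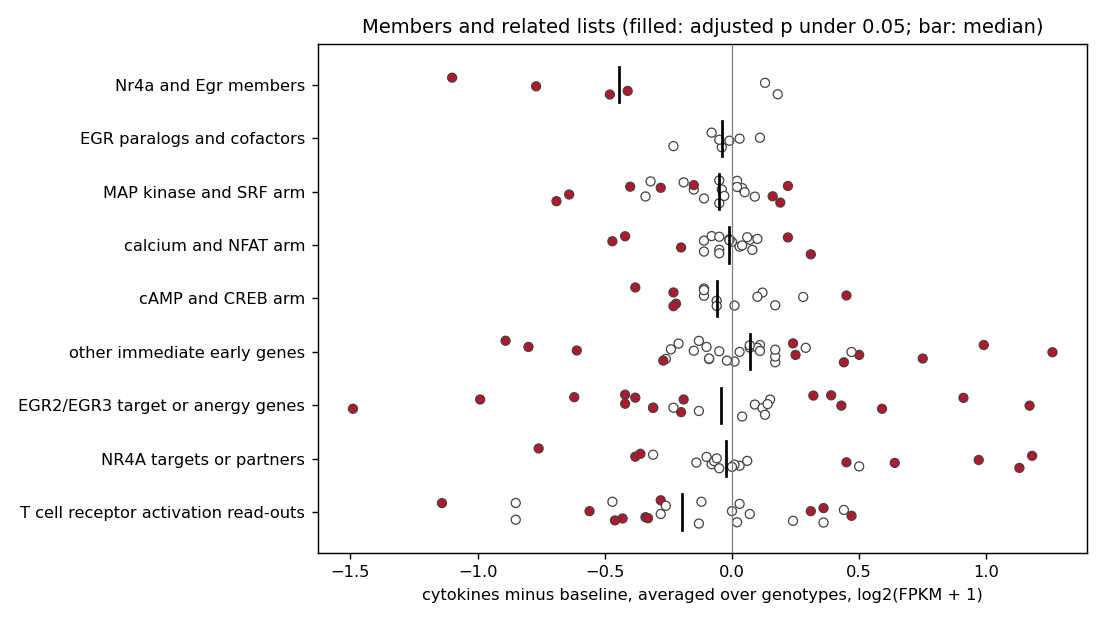
Log2 change with cytokines, averaged over genotypes, of the 6 genes (top row) and of each tested gene of the 8 lists (points, filled where the adjusted p is under 0.05), with the median of each row (black bar). Each list holds genes on both sides of 0, and the list medians lie between -0.20 and 0.07.

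Among genes reported as EGR2 and EGR3 targets or as anergy genes, 6 of 24 were higher and 10 lower (median -0.04), and 7 higher and 11 lower with the replicate block. Fasl, the death ligand whose gene EGR2 and EGR3 bind, fell by 1.49 ± 0.15 and Nrn1, encoding neuritin, by 0.99 ± 0.18. Socs3, a feedback inhibitor of IL-6 signaling, rose by 1.17 ± 0.19 and Il2 by 0.91 ± 0.20. Fasl averaged 1.23 ± 0.375 FPKM in KO cytokine and 5.50 ± 1.42 FPKM in KO baseline libraries, and 1.40 ± 0.503 FPKM in WT cytokine and 5.57 ± 1.5 FPKM in WT baseline libraries. Among genes reported as NR4A targets or partners in T cells, 5 of 20 were higher and 3 lower (median -0.02), and 6 higher and 4 lower with the block. The inhibitory receptor gene Tigit rose by 1.18 ± 0.06, Tox2 by 1.13 ± 0.16 and Batf by 0.97 ± 0.18, while Eno3, a muscle-type enolase gene, fell by 0.76 ± 0.08.

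T cell receptor activation read-outs had the lowest median, -0.20, with 3 of 24 higher and 7 lower, and 4 higher and 11 lower with the replicate block. Xcl1, a chemokine gene, fell by 1.14 ± 0.15, Tagap, a T cell activation GTPase activator, by 0.56 ± 0.05 and Rel, an NF-κB subunit, by 0.46 ± 0.11. Il2ra, the IL-2 receptor α chain, rose by 0.47 ± 0.14. No gene of any of the 8 lists passed in a genotype contrast or in the interaction.

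The genes whose levels ran most like each member's over the 12 libraries were found among 7009 tested genes of at least 5 FPKM on average, by Pearson's r of log2(FPKM + 1). The libraries share their media and replicate numbers, so r is a description. Those named for Egr3 were Gfod1 (r = 0.968) and Rilpl2 (0.966), and those for Nr4a1 were Tmem201 (0.937) and Egr3 itself (0.927). Nr4a3 ran closest to Dnmt3a (0.984), a DNA methyltransferase, Nlrc5 (0.970), an activator of MHC class I genes, and H2-Q8 (0.967), one such gene whose reads may be shared with near-identical relatives. Nr4a2 ran closest to Srsf2 (0.969), Mtap (0.952) and Lrrc40 (0.948). Egr1 had no partner above 0.797 (Tmem214, then St3gal1 at 0.794 and Abcb9 at 0.793), and Egr2 had Trafd1 (0.917), Cldn25 (0.904) and Oxsr1 (0.903).

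Among the 6 genes themselves, the pairs formed by Nr4a1, Nr4a2, Nr4a3 and Egr3 had r between 0.819 and 0.952, the highest being Nr4a3 with Egr3. Egr1 and Egr2 ran together at 0.517. Their r with the other 4 lay between -0.53 and -0.039.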

How the data were processed

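Polyadenylated RNA was measured in 12 libraries, 4 groups of 3. The authors deposited FPKM per gene. Per the submitters' processing notes, mm9, STAR 2.4.0f1, SAMtools 0.1.19, Cufflinks and HTSeq were used, with no version for the last pair and no order of steps. FPKM holds no counts, so absolute depth is unknown and error was taken from replicate libraries alone.

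The files have 24488 entries each, for 23991 IDs, and entries of the 258 repeated IDs (755 entries) were summed. Values were taken as log2(FPKM + 1) without further scaling. Testing was limited to the 10126 genes that reached 1 FPKM in 3 or more libraries. limma 3.58.1 in R 4.3.3 was fitted with 4 group means, moderated by empirical Bayes with a variance trend, for 7 contrasts, with Benjamini-Hochberg adjustment over all tested genes and a threshold of 0.05. The code was checked on simulated data with independent libraries, so the check cannot speak to ties between libraries of the same replicate number. The 6 genes and the 8 lists were chosen with earlier results of these data known, and the lists overlap (Nab2 stands in both EGR lists). Named list genes are up to 4 with the largest passing change in the averaged cytokine contrast, or the smallest p. For each member the 3 genes of highest r were named, leaving out receptor segments, small RNAs and predicted genes; a gene within this rule is not reported here.

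Whether replicate numbers pair the libraries was judged from correlations, between libraries of the same number, of residuals from the group means. These were 0.294 to 0.536 within a genotype (6 pairs) and 0.262 to 0.422 across genotypes with cytokines (3 pairs). They were 0.074 to 0.523 across genotypes at baseline (3 pairs), and 0.087 to 0.448 where both genotype and medium differed (6 pairs). Each was above 0, so the numbers may pair the libraries. The main fit held no replicate block. Calls given without a named block come from that fit, and blocked fits are given beside them as alternatives. Alternatives were another pseudocount (0.1), no filter, a filter of 5 FPKM, median-ratio scaling, quantile normalization, no variance trend, the largest entry of repeated IDs, the compared groups alone, both blocks and leaving out libraries. Promoter windows are from RefSeq tables on GRCm38.p6, used for sequence only. Python 3.11.15, numpy 2.4.6, pandas 2.3.3 and matplotlib 3.10.9 were used.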

Additional observations from a re-analysis of the deposited data

How the results depend on the processing

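The 4 calls of the averaged cytokine contrast kept their direction and stayed under the threshold in each alternative run. The number called lower among the 6 genes in KO, 2 as reported, was 1 without the expression filter, 1 with the compared groups alone, and 4 with the replicate block, shared or within genotype. In WT, 3 as reported, it was 1 without the filter, and 2 with the filter of 5 FPKM, with quantile normalization or with the compared groups alone. It was 4 in WT with the replicate block, shared or within genotype. Leaving out 1 library gave 1 to 2 in KO and 1 to 4 in WT. Nr4a3 lost its call without the filter (adjusted p = 0.0721 in KO and 0.0589 in WT) and, in KO, with the compared groups alone (0.0896). Nr4a2 in WT lost its call without the filter (0.0833), with the filter of 5 FPKM (0.0592), with quantile normalization (0.0607) and with the compared groups alone (0.0655). Without the 4 libraries numbered 1, Nr4a2 lost its call in WT (0.0668) and Nr4a1 passed there (0.0492). The cause was not tested. The replicate block changed no other call of the 6 genes than those given beside the results.

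Reversals of sign were met only in values that had not passed. Leaving out 1 library moved the WT cytokine change of Egr2 between -0.01 and 0.23. It moved the KO minus WT difference at baseline between -0.11 and 0.03 for Nr4a1, -0.14 and 0.20 for Nr4a3, -0.03 and 0.03 for Egr1, -0.17 and 0.06 for Egr2, and -0.04 and 0.10 for Egr3. With cytokines it lay between -0.20 and 0.13 for Nr4a1, -0.20 and 0.30 for Nr4a3, -0.04 and 0.09 for Egr1, and -0.22 and 0.04 for Egr3. Averaged over media it lay between -0.12 and 0.05 for Nr4a1, -0.09 and 0.17 for Nr4a3, -0.02 and 0.04 for Egr1, -0.04 and 0.10 for Egr2, and -0.11 and 0.02 for Egr3. The interaction lay between -0.16 and 0.17 for Nr4a1, -0.06 and 0.12 for Nr4a2, -0.23 and 0.28 for Nr4a3, -0.03 and 0.10 for Egr1, and -0.23 and 0.03 for Egr3. Without the 4 libraries numbered 1 the difference was 0.06 for Egr1 and -0.04 for Egr3 at baseline, 0.16 for Nr4a1 and 0.07 for Egr3 with cytokines, 0.08 for Nr4a1 and 0.01 for Egr3 averaged, and the interaction was 0.16 for Nr4a1 and 0.12 for Egr3. Quantile normalization gave an interaction of 0.02 for Nr4a1. With 3 libraries a group, genotype differences and interactions of any size inside the intervals printed with the genotype results were not excluded.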
